A study of Mus musculus with 6 samples.

Results

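The STAT genes, which encode the signal transducers and activators of transcription, were followed in natural killer (NK) cells sorted from mouse spleen. All mice were female C57BL/6 animals, and 3 libraries came from treatment with complexes of IL-15 (IL-15C) and 3 from treatment with complexes of IL-2 (IL-2C); no untreated cells were analysed here. A cytokine complex joins the cytokine to another protein so that it acts for longer. The labels used here state no binding partner, dose, time, age or number of mice per library. NK cells were sorted as NK1.1+ NKp46+ events lacking CD3 and CD1d tetramer staining, and their transcripts were measured by RNA sequencing. The STAT members were the rows named Stat2, Stat3, Stat4, Stat5a, Stat5b and Stat6, which are 6 of 24343 genes listed. Each had 1 row per library, and all 6 passed the filter on low values, a mean of at least 1 FPKM over the 6 libraries. The question was whether the transcripts of these factors differed between the treatments, and how they stood to each other.

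STAT proteins wait in the cytoplasm until a cytokine binds its receptor. Janus kinases (JAKs) on the receptor chains then phosphorylate a tyrosine of the STAT, and STAT dimers move to the nucleus and bind DNA. IL-2 and IL-15 signal through the same beta and gamma receptor chains, JAK1 and JAK3, mainly to STAT5A and STAT5B, which NK cells need for their development and survival. In NK cells STAT4 carries the signal of IL-12 that induces interferon gamma, STAT3 the signals of IL-10 and IL-21, STAT6 that of IL-4, and STAT2 that of type I interferon. Their activity is set by phosphorylation, which transcript levels do not measure.

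The deposited intervals implied 23543141 to 27229145 sequenced fragments per library. The NK markers were abundant in both groups: Ncr1, which encodes NKp46, averaged 779 ± 22.0 FPKM in IL-15C and 811 ± 24.9 FPKM in IL-2C (SD, n = 3 each). Of the 12 NK markers tested, 6 had log2 changes below 0 and 6 above, beside 64.7% of all tested genes below 0. Gzmb alone passed limma, with higher values in IL-15C (adjusted p = 0.00916), or 8.33% called beside 6.44% of all tested genes. Klrd1, Klrk1 and Eomes were lower in IL-15C without overlap, at log2 changes of -0.22, -0.18 and -0.17, and did not pass (limma adjusted p = 0.0512, 0.0591 and 0.0755). The 9 T cell markers measured summed to 64.7 to 87.8 FPKM in IL-15C and 66.4 to 71.9 FPKM in IL-2C. Most of that sum came from Cd3g (37.6 FPKM in IL-15C and 31.8 FPKM in IL-2C), Cd3d (18.2 FPKM in IL-15C and 18.1 FPKM in IL-2C), Cd28 (14.9 FPKM in IL-15C and 14.5 FPKM in IL-2C) and Cd3e (4.16 FPKM in IL-15C and 4.52 FPKM in IL-2C), while Cd4, Cd8a and Cd8b1 were at or below 0.0516 FPKM in both group means. The 8 B cell markers summed to 1.12 to 9.34 FPKM in IL-15C and 3.33 to 15.1 FPKM in IL-2C, and the 8 myeloid markers measured summed to 50.6 to 117 FPKM in IL-15C and 45.6 to 71.8 FPKM in IL-2C. The 8 red cell and platelet markers summed to 3.00 to 23.95 FPKM in IL-15C and 4.93 to 6.08 FPKM in IL-2C, and the 6 dendritic cell markers to 1.33 to 1.63 FPKM in IL-15C and 1.54 to 1.78 FPKM in IL-2C. The highest T cell, myeloid and red cell sums were all those of IL-15C replicate 1, in which S100a8 had 42.6 FPKM and Hba-a1 12.3 FPKM, against at most 22.0 and 3.16 FPKM in the other libraries. All 5 ranges overlapped between groups. Of the tested markers, 0 of 4 T cell, 0 of 2 B cell, 0 of 3 myeloid, 0 of 2 red cell and platelet and 0 of 1 dendritic cell genes passed limma, also at an unadjusted p under 0.05. Their part in the STAT values was not tested. These are bulk samples, so fewer cells of a type and less RNA per cell cannot be told apart. Whether each library had its own mice is not stated, so the p-values below rest on a spread among libraries that may be technical.

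The 6 genes lie on 3 mouse chromosomes (mm10 positions). Stat5b (chr11:100780731-100850585), Stat5a (chr11:100859351-100885169) and Stat3 (chr11:100886810-100939511) are direct neighbours, with 8765 bases between Stat5b and Stat5a and 1640 bases between Stat5a and Stat3. Stat6 (chr10:127642986-127660987) and Stat2 (chr10:128270576-128292849) share chromosome 10, and Stat4 lies on chromosome 1 (chr1:51987148-52107189). Of the neighbouring genes described here, most were near 0 in these cells. Lrp1 and 1700012D01Rik beside Stat6, Apof and Il23a beside Stat2 and Ptrf beside Stat3 had group means of 0 to 0.379 FPKM. Ghdc, beside Stat5b, had 2.99 FPKM in IL-15C and 3.21 FPKM in IL-2C.

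STAT dimers bind the motif TTCNNNGAA, called GAS, while the complex of STAT2 with its partners binds the interferon element, whose core was searched as GAAA, any 2 bases and GAAA. Both strands of the 250 bases before each start in RefSeq (GRCm38.p6) were read, in 9 windows for the 6 genes. None of the 9 windows held TTCNNNGAA, which stood in 7.02% of all 32851 windows. The STAT6-type motif stood in 1 of the 9, that of Stat2, and in 5.85% of all windows. The interferon core stood in 2.98% of all windows, and in those of Stat2 and Stat4. These windows are shown because they are the member windows that hold it, and the capitals mark the interferon core, which overlaps no TTCNNNGAA. The first is chr10:128270248-128270497 on the plus strand and the second is chr1:52007990-52008239 on the plus strand, before an internal start of Stat4.

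Stat2: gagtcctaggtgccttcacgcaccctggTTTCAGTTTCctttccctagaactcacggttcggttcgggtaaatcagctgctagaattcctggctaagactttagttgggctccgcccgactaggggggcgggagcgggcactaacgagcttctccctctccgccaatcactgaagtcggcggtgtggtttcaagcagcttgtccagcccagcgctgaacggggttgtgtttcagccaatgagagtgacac

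Stat4: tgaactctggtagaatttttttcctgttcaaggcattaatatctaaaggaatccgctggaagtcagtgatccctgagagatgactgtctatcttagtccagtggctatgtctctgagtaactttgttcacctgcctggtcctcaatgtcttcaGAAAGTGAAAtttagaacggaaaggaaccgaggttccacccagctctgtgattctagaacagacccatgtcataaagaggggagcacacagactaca

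A match describes letters and not a bound site, and the files do not say which start the cells used.

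Transcript levels spread over nearly an order of magnitude across the 6 genes, and the difference of group means ran from -9.57% (Stat5b) to 2.45% (Stat3) of the IL-2C mean. Stat4 was the most abundant member at a mean of 111.7 FPKM over the 6 libraries, followed by Stat6 at 73.8, Stat3 at 51.5, Stat5b at 22.0, Stat2 at 14.8 and Stat5a at 12.97 FPKM. FPKM is a value per length of transcript, so that members can be compared. Among the 9831 genes tested, Stat4 ranked 452nd by level, Stat6 746th, Stat3 1195th, Stat5b 3057th, Stat2 4326th and Stat5a 4824th. Among these 6 genes, the factor with the highest transcript level was thus that of IL-12 signalling, and both STAT5 genes stood in the lower part. The order covers only the 6 genes reported here.

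**Figure D1:**
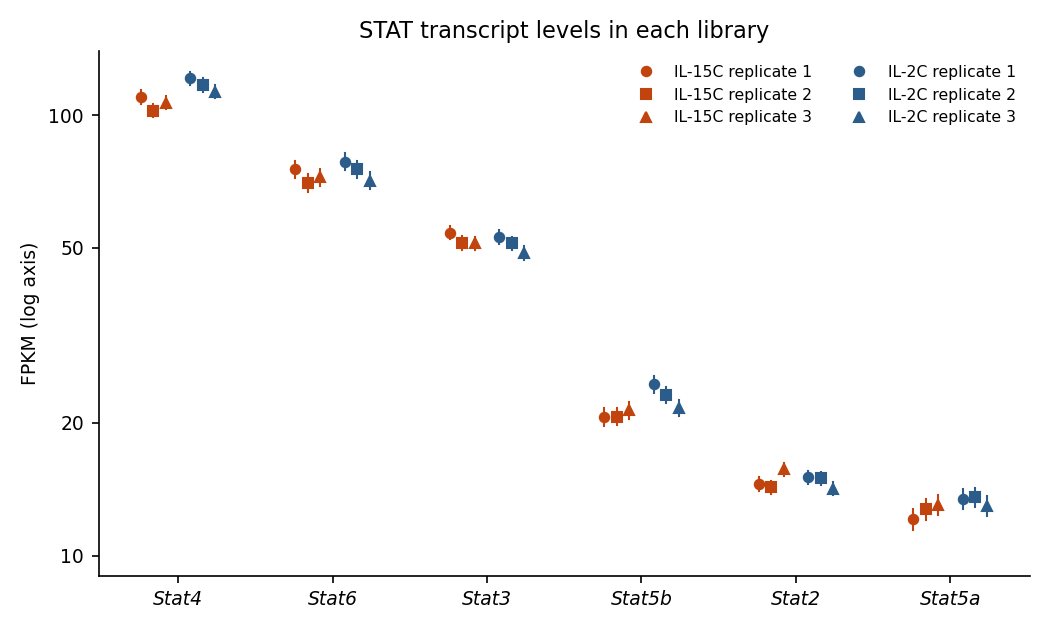
FPKM (log axis) of the 6 STAT genes in each library, with IL-15C in red left of IL-2C in blue; bars are the deposited interval of each estimate. Levels run from Stat4 at 102.4 to 121.2 FPKM down to Stat5a at 12.1 to 13.6 FPKM, and the order is the same in all 6 libraries.

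The order held in every library. On the log2(FPKM + 1) scale the level of Stat4 was 0.59 ± 0.05 above that of Stat6 (mean ± SD over 6 libraries), Stat6 was 0.51 ± 0.05 above Stat3, Stat3 was 1.19 ± 0.10 above Stat5b, and Stat5b was 0.54 ± 0.09 above Stat2. The smallest step, Stat2 over Stat5a, was 0.18 ± 0.06, with differences of 0.12 to 0.25. Each of the 5 neighbouring pairs gave an exact two-sided sign permutation p of 0.03125, which is the smallest that 6 libraries allow and the same after adjustment over the 5 pairs. The order was taken from the means of these same 6 libraries. The p-values therefore restate that each step kept its sign, and are no separate support for the order. No neighbours in the order were within their spread. Stat5a and Stat5b are close copies, and reads that fit both could be split between them, so their separate levels are less certain than their sum.

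Between treatments, 0 of the 6 STAT genes passed limma's test at an adjusted p under 0.05, against 6.44% of all tested genes (1.72% with higher and 4.72% with lower values in IL-15C). At an unadjusted p under 0.05 there were 2, Stat4 and Stat5b, both with lower values in IL-15C; at that level 20.4% of tested genes were lower and 6.48% higher. The member changes had a median of -0.06 on the log2(FPKM + 1) scale, beside -0.04 for all tested genes. The sign was negative for 4 of 6 members and for 64.7% of tested genes. The 2 members whose groups did not overlap were both lower, as were 25.1% of tested genes, and 0 were higher, where 8.15% of tested genes were. With 6 members, these shares were read only beside the background. The genes under 0.05 before adjustment depended on scaling. With a common library median they were Stat4, lower at -0.09 (limma unadjusted p = 0.0309), and Stat3, higher at 0.08 (0.0458). Stat5b was at -0.09 there, with a limma unadjusted p of 0.0596.

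Stat4 had 110.0, 102.4 and 106.7 FPKM in the IL-15C libraries and 121.2, 117.0 and 113.1 FPKM in the IL-2C libraries. All 3 IL-15C values lay below the lowest IL-2C value. The means were 106.4 ± 3.79 FPKM in IL-15C and 117.1 ± 4.05 FPKM in IL-2C (SD, n = 3 each), a log2 change of -0.14 ± 0.05 (SE) with a 95% interval of -0.24 to -0.03. The limma adjusted p was 0.104, so Stat4 did not pass.

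Stat5b, one of the main STATs of both cytokines, had 20.6, 20.7 and 21.4 FPKM in IL-15C and 24.5, 23.2 and 21.7 FPKM in IL-2C. The groups did not overlap, but IL-15C replicate 3 and IL-2C replicate 3 were close. The means were 20.9 ± 0.423 FPKM in IL-15C and 23.1 ± 1.42 FPKM in IL-2C, with a log2 change of -0.14 ± 0.05, a 95% interval of -0.25 to -0.02 and a limma adjusted p of 0.121. Its close relative Stat5a had 12.1, 12.7 and 13.02 FPKM in IL-15C and 13.4, 13.6 and 12.98 FPKM in IL-2C. Here IL-15C replicate 3 lay just above IL-2C replicate 3, so the groups overlapped. The log2 change of Stat5a was -0.07 ± 0.04, with an interval of -0.17 to 0.03 and a limma adjusted p of 0.319.

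The other 3 members had overlapping groups and intervals that include 0. Stat3 had 54.1, 51.2 and 51.2 FPKM in IL-15C and 52.9, 51.1 and 48.7 FPKM in IL-2C, a log2 change of 0.03 with an interval of -0.07 to 0.14. Stat6 had 75.3, 70.2 and 72.4 FPKM in IL-15C and 78.4, 75.5 and 71.0 FPKM in IL-2C, a log2 change of -0.04 with an interval of -0.16 to 0.07. Stat2 had 14.5, 14.3 and 15.7 FPKM in IL-15C and 15.04, 14.96 and 14.2 FPKM in IL-2C, a log2 change of 0.01 with an interval of -0.10 to 0.12. The limma adjusted p was 0.661 for Stat3, 0.591 for Stat6 and 0.922 for Stat2. As ratios of FPKM + 1, the 6 intervals together ran from 0.841 to 1.10, so a difference of any member beyond this range lay outside its interval in this fit. The highest library of a member exceeded its lowest by a factor of 1.11 for Stat2 and Stat3 to 1.19 for Stat5b.

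**Figure D2:**
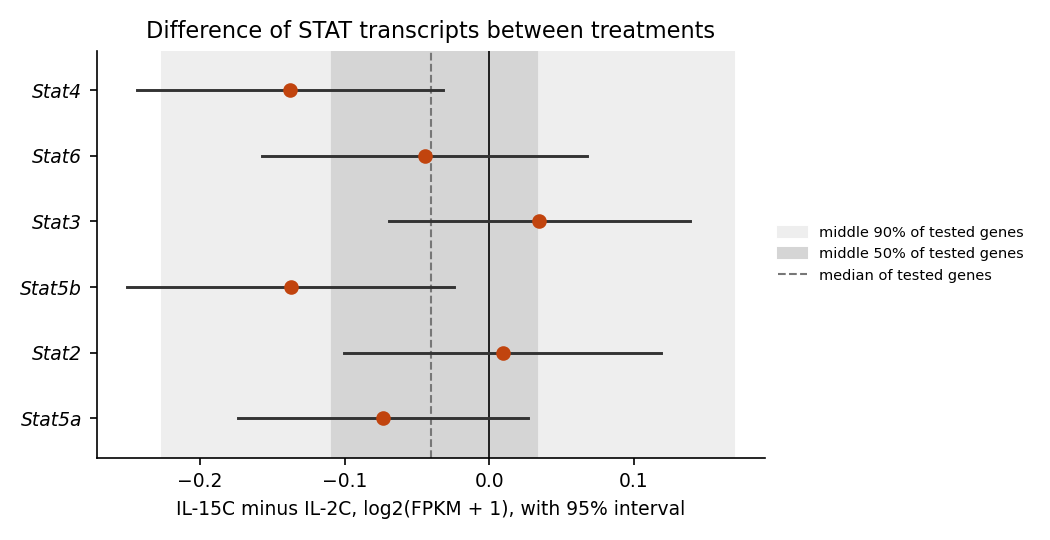
Log2 difference, IL-15C minus IL-2C, of each STAT gene with its 95% interval; the shading spans the middle 50% and 90% of all tested genes. Stat4 and Stat5b stand at -0.14 with intervals below 0, and the other 4 intervals include 0.

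The authors' deposited table of group values, which was scaled apart from the libraries and holds no test, gave ratios of IL-15C over IL-2C near 1 for each member. In the authors' deposited table Stat4 had 144.4 FPKM in IL-15C and 154.1 FPKM in IL-2C, a ratio of 0.937, and Stat5b had 28.3 FPKM in IL-15C and 30.4 FPKM in IL-2C, a ratio of 0.933. The ratio there was 1.06 for Stat3, 1.04 for Stat2, 0.999 for Stat6 and 0.977 for Stat5a, and the deposited intervals of both groups overlapped for all 6. The table combines the same libraries and is no independent measurement.

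Differences between members within a library do not depend on a factor that scales the whole library, apart from the added 1. Quantile normalization is no such factor. Of the 15 pairs of members, 8 had a difference that did not overlap between treatments. Among all pairs of tested genes 32.3% did so. Pairs share genes and are not independent, and the exact permutation p of 0.1 for each of the 8 is the smallest that 3 against 3 libraries allow, so none could pass (adjusted p = 0.1875 over 15 pairs). The widest shifts among the 15 pairs were those of Stat3 against Stat4 and Stat5b. Stat4 stood at 2.03, 2.00 and 2.09 times the FPKM of Stat3 in IL-15C libraries and at 2.29, 2.29 and 2.32 times in IL-2C libraries. Stat3 stood at 2.62, 2.48 and 2.39 times the FPKM of Stat5b in IL-15C libraries and at 2.16, 2.21 and 2.25 times in IL-2C libraries. Both sets of ratios were separated between the groups.

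The balance of the STAT5 pair was less distinct. Stat5b had 1.71, 1.62 and 1.64 times the FPKM of Stat5a in IL-15C libraries and 1.83, 1.71 and 1.67 times in IL-2C libraries. The groups overlapped, with an exact permutation p of 0.2 (0.3 adjusted over the 15 pairs). Stat4 and Stat5b kept the steadiest balance across treatments, with a mean log2 difference of 2.29 in IL-15C and 2.29 in IL-2C. Of the summed FPKM of the 6 genes, Stat4 made up 38.1% in IL-15C and 39.8% in IL-2C, and Stat3 made up 18.7% in IL-15C and 17.3% in IL-2C.

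**Figure D3:**
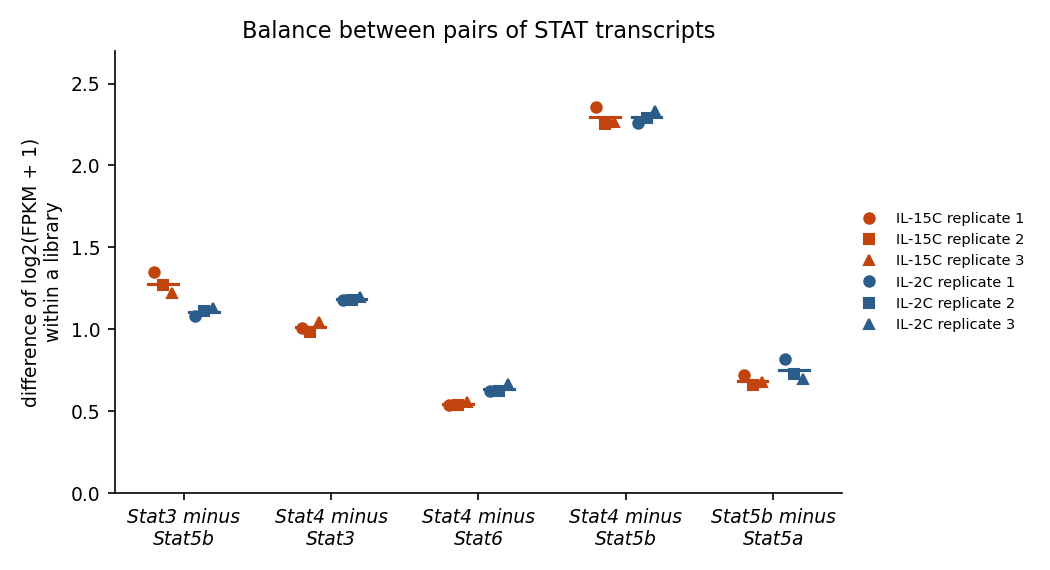
Difference of log2(FPKM + 1) between the 2 genes of a pair within each library, with IL-15C in red left of IL-2C in blue and lines at the group means. Stat3 minus Stat5b averages 1.28 in IL-15C and 1.11 in IL-2C without overlap, whereas Stat4 minus Stat5b overlaps.

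Across the 6 libraries the profiles of Stat4 and Stat5b were the most alike of any 2 members. Their centred log2 values differed by a root mean square of 0.039, against 0.095 for Stat3 and Stat5b, the least alike. Of all tested genes, 549th in likeness to Stat4 was Stat5b, so many genes outside the family were closer. The nearest were Gid4 and Tmpo for Stat4 (0.010 each), Ctdp1 and Rab2a for Stat5b (0.0092 and 0.014), Atp5sl and Pan2 for Stat5a (0.011 each), Mob3a and Sec24b for Stat3 (0.0086 and 0.0091), Psmd4 and Arfrp1 for Stat6 (0.010 and 0.011) and Grina and Chrnb1 for Stat2 (0.011 and 0.017). This is a description of 6 libraries, and genes with little variation lie close to one another by construction.

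Around the STAT genes, 109 tested genes of the pathway were examined, namely receptor chains, kinases, inhibitors, cofactors and target genes. Here and below, rose and fell mean called higher and called lower in IL-15C than in IL-2C. Without untreated cells, which treatment moved a gene cannot be told. In limma, 8 of the 109 genes rose, 4 fell and 97 did not pass, so that 11.01% were called, beside 6.44% of all tested genes. Their median log2 change was 0.05, beside -0.04 for all tested genes. The lists were chosen with earlier results of these data known, so the counts per list are descriptive.

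Upstream of the STATs, 1 of 15 cytokine receptor chains rose, 1 fell and 13 did not pass. Il12rb1, a chain of the IL-12 receptor that signals to STAT4, had 22.4, 17.4 and 17.6 FPKM in IL-15C and 15.3, 14.4 and 13.9 FPKM in IL-2C. All IL-15C values were higher, with replicate 1 above the others, and the log2 change was 0.37 ± 0.09 (limma adjusted p = 0.0415). Ifnar2, the type I interferon receptor chain to which STAT2 binds, had 27.9, 27.4 and 27.5 FPKM in IL-15C and 32.04, 32.3 and 32.1 FPKM in IL-2C. Its groups were tight and apart, and it fell by 0.21 ± 0.04 (limma adjusted p = 0.0191). The shared receptor chains of IL-2 and IL-15 did not pass: Il2rb had a log2 change of 0.16 ± 0.08 and Il2rg one of 0.17 ± 0.08. Neither did Il15ra, the chain that presents IL-15, at 0.15, nor Il10ra, a chain of the IL-10 receptor, at -0.15.

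Of the 4 JAK kinase genes, Jak3, whose product binds the gamma chain, rose; it had 63.1, 60.3 and 63.5 FPKM in IL-15C and 55.9, 53.4 and 52.3 FPKM in IL-2C, a log2 change of 0.21 ± 0.04 (limma adjusted p = 0.0316). Jak1, whose product binds the beta chain, had 342.9, 364.4 and 365.0 FPKM in IL-15C and 432.8, 384.6 and 386.8 FPKM in IL-2C. Its values were lower in IL-15C without overlap but did not pass, at a log2 change of -0.17 ± 0.06 (limma adjusted p = 0.126). Jak2 and Tyk2 had log2 changes of -0.01 each. Jak1 was thus several times as abundant as Jak3 in both groups.

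Of 20 genes that restrain STATs, 0 rose, 2 fell and 18 did not pass. The 2 were Ptpn2, a phosphatase that removes the activating phosphate from STATs, with a log2 change of -0.16 ± 0.04 (limma adjusted p = 0.0479), and Stub1, an E3 ubiquitin ligase, with -0.22 ± 0.06 (0.0485). Both calls ended after scaling the libraries to a common median, with a limma adjusted p of 0.0883 for Ptpn2 and 0.0622 for Stub1. The feedback inhibitors Socs3, Socs1 and Cish, which STATs induce and which then block the receptor, did not pass. Cish, a STAT5 target, had 5.89, 2.96 and 2.68 FPKM in IL-15C and 2.01, 2.204 and 2.27 FPKM in IL-2C. Its groups did not overlap, but IL-15C replicate 1 stood far above the other 2 (log2 change 0.56 ± 0.20, limma adjusted p = 0.110). Socs1 had 11.7, 7.03 and 7.43 FPKM in IL-15C and 6.77, 6.78 and 6.44 FPKM in IL-2C, again with replicate 1 the highest. Socs3 had a log2 change of 0.30 ± 0.08 (limma adjusted p = 0.0540), and Pias1, which blocks STAT binding to DNA, had -0.15 (0.0695). None of 17 STAT cofactor genes passed limma at an adjusted p under 0.05; Ep300, a histone acetyltransferase recruited by STATs, had the smallest p at 0.17 ± 0.05 (adjusted p = 0.0670). The coactivator gene Ncoa3 had 0.18 ± 0.05, Stam, an adaptor gene, -0.15 and Kpna1, an importin gene, -0.10. Of the 17, 3 had an unadjusted p under 0.05 in limma. At that level 20.4% of all tested genes were lower and 6.48% higher.

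**Figure D4:**
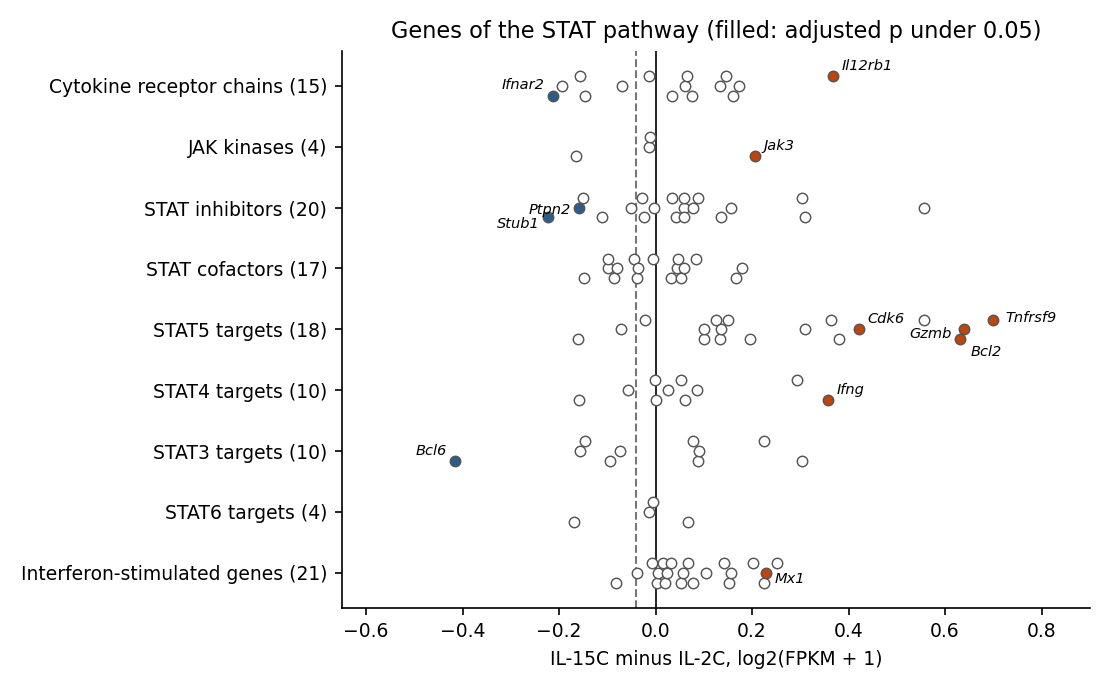
Log2 difference, IL-15C minus IL-2C, of the tested genes of each pathway list (number tested in brackets); filled points passed limma's test and are named, and the dashed line is the median of all tested genes. In the STAT5 target list 15 of 18 points lie above 0, and in the cofactor list 8 of 17 do.

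Of 18 tested genes known as STAT5 targets, 4 rose, 0 fell and 14 did not pass, or 22.2% called. Of all tested genes 1.72% rose and 4.72% fell. In the list 15 lay above 0 and the median log2 change was 0.17. Among all tested genes 64.7% lay below 0, with a median of -0.04. The list was chosen with earlier results of these data known, so these shares are no independent support. Bcl2, which blocks apoptosis, had 20.4, 19.0 and 16.9 FPKM in IL-15C and 9.96, 12.7 and 12.7 FPKM in IL-2C (log2 change 0.63 ± 0.09, limma adjusted p = 0.0123). Gzmb, the gene of the cytotoxic protease granzyme B, had 641.7, 523.0 and 525.4 FPKM in IL-15C and 366.6, 338.3 and 374.6 FPKM in IL-2C (0.64 ± 0.08, adjusted p = 0.00916). Every library of IL-15C was above every library of IL-2C for both genes. Tnfrsf9, which encodes the costimulatory receptor 4-1BB, rose by 0.70 ± 0.12 and Cdk6, a cell cycle kinase gene, by 0.42 ± 0.09. A maximum in IL-15C replicate 1, as in Cish, was common in this list. All 4 called genes had it, with Tnfrsf9 at 29.6 and Cdk6 at 3.01 FPKM in that library, as did Pim1 at 125.3 and Pim2 at 49.3 FPKM. Of the tested genes of the list, only Socs2, Mcl1, Osm, Myc and Id2 had their maximum in another library. The summed myeloid and red cell markers were also highest in IL-15C replicate 1, at 117 and 23.95 FPKM, and their part in these values was not tested. Myc, a growth regulator, had a log2 change of -0.07 ± 0.06.

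Of 10 tested STAT4 targets, 1 rose, 0 fell and 9 did not pass, with a median of 0.04. The riser was Ifng, the gene of interferon gamma, at 44.0, 38.7 and 41.3 FPKM in IL-15C and 29.3, 33.5 and 33.2 FPKM in IL-2C (0.36 ± 0.06, limma adjusted p = 0.0198). Stat4 itself had its lower values in the group with more Ifng transcript. Gadd45g, a stress sensor gene, had 0.29, Map3k8, a kinase gene, 0.09, and Il12rb2, the other chain of the IL-12 receptor, 0.06 ± 0.05, all short of the threshold. Of 4 tested STAT6 targets, 0 passed limma, and 1, Zfp35 at -0.17 ± 0.06, had an unadjusted p under 0.05. At that level 20.4% of all tested genes were lower. The other tested STAT6 targets were Gata3 at 0.07, Il4ra at -0.01 and Nfil3 at -0.0049, and Il24 was listed at 0 in all libraries. Of 21 tested interferon-stimulated genes, targets of STAT2 and its partners, 1 rose, 0 fell and 20 did not pass. In that list 18 lay above 0 with a median of 0.06. Among all tested genes 64.7% lay below 0, with a median of -0.04. Mx1, an antiviral GTPase gene, was the riser at 14.1, 13.9 and 15.4 FPKM in IL-15C and 12.4, 11.9 and 12.4 FPKM in IL-2C (0.23 ± 0.05, limma adjusted p = 0.0340). Eif2ak2, a kinase gene of the antiviral response, had 0.15, Oas3 0.22 and Isg15 0.25, and none of these 3 passed.

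Of 10 STAT3 targets, 0 rose, 1 fell and 9 did not pass, with a median of 0.002. Bcl6, a transcriptional repressor gene that STAT3 induces and STAT5 represses in T cells, had 9.21, 10.1 and 10.3 FPKM in IL-15C and 13.6, 14.1 and 12.8 FPKM in IL-2C. The groups were well apart, and Bcl6 fell by 0.42 ± 0.05 (limma adjusted p = 0.00905). One of its RefSeq start windows, chr16:23981284-23981533 on the minus strand, held TTCNNNGAA 3 times. Hif1a, the hypoxia factor gene, had a log2 change of 0.08 and did not pass. The window is shown because Bcl6 had the smallest p of the pathway genes that fell, and the capitals mark the 3 matches.

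Bcl6: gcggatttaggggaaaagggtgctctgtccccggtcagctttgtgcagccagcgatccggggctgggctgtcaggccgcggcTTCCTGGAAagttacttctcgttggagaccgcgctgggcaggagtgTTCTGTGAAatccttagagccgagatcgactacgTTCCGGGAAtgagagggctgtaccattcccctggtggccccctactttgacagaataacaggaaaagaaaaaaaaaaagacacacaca

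Among the lists, 2 of 8 STAT3 targets, 3 of 10 STAT4 targets and 2 of 16 STAT5 targets with a RefSeq window held TTCNNNGAA, as did 0 of 6 STAT6 targets, 5 of 20 interferon-stimulated genes, 3 of 16 receptor chains, 0 of 4 JAK kinase genes, 1 of 11 inhibitors and 0 of 10 cofactors, beside 8.13% of all 27025 genes. The interferon core stood in 7 of 20 interferon-stimulated genes, 1 of 16 STAT5 targets and 1 of 11 inhibitors, and in 0 genes of the other 6 lists, beside 3.46% of all genes.

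Many pathway calls depended on which library was left out. Without IL-2C replicate 2, 0 of the 12 called pathway genes passed limma; without IL-2C replicate 1, Bcl2 and Gzmb passed; 5 passed when IL-15C replicate 2 was left out, 6 when IL-15C replicate 3 was and 7 when IL-2C replicate 3 was. Without IL-15C replicate 1, 10 passed, all but Ptpn2 and Stub1. With no filter on low values 1 of the 12 passed, Ifnar2. The highest adjusted p of limma over the 6 omissions was 0.0516 for Bcl2 and Gzmb, 0.0527 for Bcl6 and 0.0677 for Ifng. Over all 9831 genes, the same omissions gave 14 higher and 15 lower without IL-2C replicate 2, in place of 169 and 464. The split also turned with scaling, to 325 higher and 207 lower with a common library median and 307 and 269 after quantile normalization. For the STAT genes, 0 passed in each of the 6 omissions. The difference of Stat4 ran from -0.16 to -0.11 and that of Stat5b from -0.18 to -0.10 over the omissions, while that of Stat2 changed sign (-0.029 when IL-15C replicate 3 was left out and -0.016 when IL-2C replicate 3 was). Stat4 passed under quantile normalization (limma adjusted p = 0.0437). With library weights, Stat4 (limma adjusted p = 0.0196) and Stat5b (0.0374) passed. Under these weights 440 of the 9831 genes were called higher and 1667 lower. The weights were estimated from the spread of these same libraries, from 0.403 for IL-15C replicate 1 to 2.41 for IL-2C replicate 2. Over all alternatives the limma adjusted p ran from 0.0196 to 0.301 for Stat4 and from 0.0374 to 0.354 for Stat5b.

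**Figure D5:**
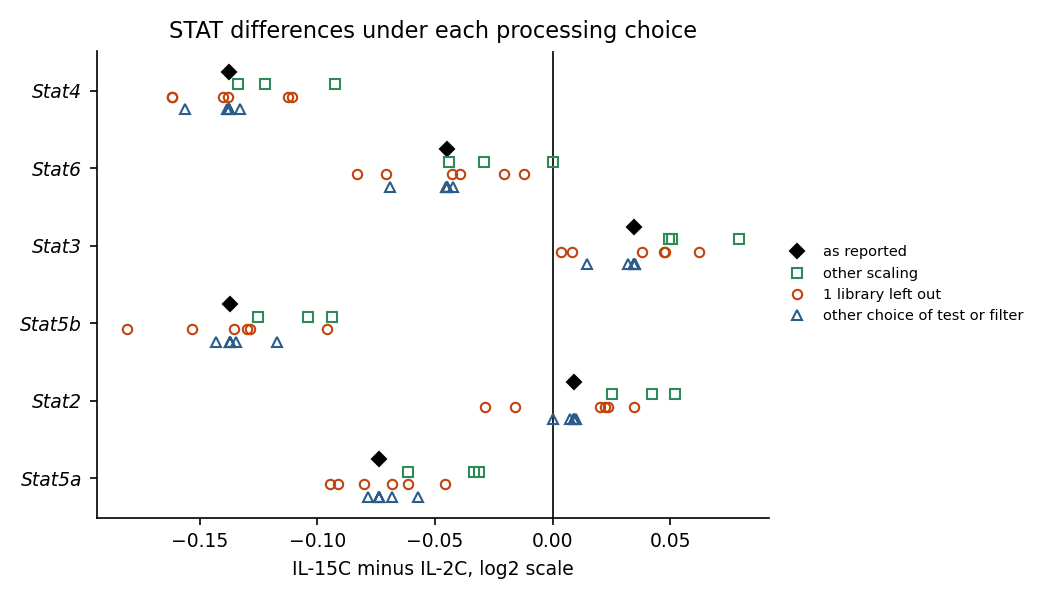
Log2 difference, IL-15C minus IL-2C, of each STAT gene as reported and under the other scalings, omissions of 1 library and other choices of test or filter. Stat4 and Stat5b stay below 0 and Stat3 above 0 in all settings shown, whereas Stat2 and Stat6 reach both sides of 0.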

How the data were processed

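Total RNA of the sorted cells was purified on kit columns, per the labels' protocols; sample titles gave group and replicate number. The submitters' processing notes name TopHat2 2.0.13, Cufflinks 2.2.1 and mm10. An annotation was not given in the sources used here. For each library the deposited table holds FPKM (fragments per kilobase and per mapped fragments of the library) with the bounds of each estimate, and a Cuffdiff table holds group FPKM. Count models do not suit FPKM and were not used. Repeated rows of 280 genes were added together, and 10 genes with a failed estimate were dropped.

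Genes averaging at least 1 FPKM were tested on log2(FPKM + 1) with limma 3.58.1 (R 4.3.3) with an intensity trend, two-sided, with Benjamini-Hochberg adjustment over all 9831 genes and a threshold of 0.05. This scale slightly understates changes of low genes. The procedure was tested on simulated data with independent errors. No effect shared by a whole library was simulated, so this test cannot speak to the dependence of the calls on single libraries. Implied fragments were read from the interval of each library as 2 SD of a Poisson count, which takes that interval as counting error only. The deposited intervals of group values were wider relative to their level (122.6 to 166.2 FPKM for Stat4 in IL-15C) and were not read this way. Level steps and pair balances used exact permutation tests (scipy 1.17.1). Promoter windows are RefSeq's, 250 bases before each start; starts of gene loci are written 1-based. No 2 libraries had equal values in more than 5 of the 9831 genes.

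The members and the gene lists were chosen with earlier results of these data known. Named genes are all members, per pathway list up to 4 genes with the smallest p and up to 6 called ones, the nearest listed gene on each side of a member, and the 2 genes of nearest profile. Cish, Socs1, Socs2, Pim1, Pim2, Mcl1, Osm, Id2, Myc, Il2rb, Il2rg, Il24 and the cell type markers fall outside this rule and were chosen after their values were seen. Some genes that these rules name are not reported here. Alternatives were other pseudocounts, filters and scalings, no trend, library weights, a replicate block and each library left out.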

Additional observations from a re-analysis of the deposited data

How the results depend on the processing

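In limma fits other than omissions of a library, 0 of 6 STAT genes were called in any setting except quantile normalization (1 lower, Stat4 at -0.13) and library weights (2 lower, Stat4 at -0.16 and Stat5b at -0.13). Stat6 turned to 0.0002 with a common library median. Stat2 ran from -0.0289 to 0.0345 when a library was left out. The counts over all genes, 169 higher and 464 lower, became 12 and 17 without a filter, 325 and 207 with a common median, 307 and 269 after quantile normalization and 440 and 1667 with library weights; omissions of a library gave 14 to 176 higher and 15 to 575 lower. The 8 higher pathway genes became 0 without a filter and 0 to 9 over omissions. The 4 lower ones became 1 without a filter, 2 with a common median, 2 without the trend, 8 with library weights and 0 to 4 over omissions. The cause of these shifts was not tested.

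With 5 libraries the sign permutation test cannot go below 0.0625, so no level step could pass there; the steps ran from 0.58 to 0.60 for Stat4 over Stat6, 0.50 to 0.52 for Stat6 over Stat3, 1.16 to 1.22 for Stat3 over Stat5b, 0.52 to 0.57 for Stat5b over Stat2 and 0.16 to 0.19 for Stat2 over Stat5a.

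Replicate numbers are shared between groups, and the labels do not say whether same-numbered libraries were paired. Deviations of same-numbered libraries correlated at -0.03, -0.16 and -0.02, and those of other-numbered libraries at -0.14 to 0.18. With 3 libraries per group these values cannot decide whether a day or batch was shared. With a replicate block, 171 genes were higher and 346 lower, 8 pathway genes were higher and 2 lower, and 0 STAT genes were called (limma adjusted p = 0.0781 for Stat4 and 0.132 for Stat5b).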
